A study of Mus musculus with 6 samples.

Results

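The genes described here encode subunits of the Polycomb repressive complexes in mouse embryonic stem cells (ESCs). Members were taken by symbol from the deposited expression table: *Ezh1*, *Ezh2*, *Suz12*, *Eed*, *Jarid2* and *Mtf2* for Polycomb repressive complex 2 (PRC2), and *Rnf2*, *Ring1*, *Bmi1* and *Cbx7* for PRC1. Each of the 10 symbols matched 1 of the 21639 entries, and all 10 averaged 1 RPKM or more over the 6 libraries. RPKM is a read count scaled to the length of the transcript and to the number of mapped reads of the library.

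RNA was sequenced from 3 mouse lines as ESCs (day 0, D0) and as embryoid bodies (EBs) at day 3 (D3), which are aggregates grown in suspension without leukemia inhibitory factor. There was 1 library per condition and 6 in all. The line labelled KD received a lentiviral hairpin that targets the 3′ untranslated region of *H2afz*, the endogenous gene of the histone variant H2A.Z, with blasticidin selection. In the other lines, called WT and AP3 here after their labels, the same kind of hairpin was combined with an H2A.Z transgene fused to YFP under a CMV promoter that doxycycline induces, and YFP-positive cells were sorted. The transgene is wild-type H2A.Z in WT, and in AP3 its acidic patch residues G92, D97 and S98 are exchanged for those of H2A. The labels give the strain as V6.5 (129SvJaexC57BL/6), whereas the methods derive the transgenic lines from KH2 ESCs. Which of the hairpins each library carried, and whether a line is 1 clone, is not given in the sources used here. The paper describes adding hairpins to the transgenic lines, and does not say whether the line labelled KD carries a transgene. Cells were grown on irradiated embryonic fibroblasts, which were left out for the last passage. Differences between libraries thus have no replicate to check them, and no p-value was computed.

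PRC2 is the methyltransferase that places methyl groups on lysine 27 of histone H3 (H3K27me3). EZH2 or its paralogue EZH1 is the catalytic subunit, and both work only together with SUZ12 and EED, of which EED also binds the H3K27me3 mark. JARID2 and MTF2 belong to alternative forms of PRC2 and help to bring the complex to CpG-rich promoters. PRC1 is an E3 ligase that adds ubiquitin to a lysine of H2A through RING1B (encoded by *Rnf2*) or RING1A (encoded by *Ring1*), each paired with a PCGF protein such as BMI1. In canonical PRC1 a CBX protein such as CBX7 reads H3K27me3. In ESCs these complexes keep developmental genes at bivalent promoters silent but poised, and H2A.Z is found at the same promoters.

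The depth of each library, estimated from the steps between the lowest RPKM values of 3754 genes with 1 annotated transcript, was between 18.6 and 30.4 M reads, the highest in AP3 ESCs. Entries above 0 numbered 16997 in AP3 ESCs, against 17148 in WT ESCs and 17170 in ESCs labelled KD. The depth of AP3 ESCs, and the counting intervals that use it, are thus less certain. A gene is said to pass the threshold when its RPKM differed more than 1.5-fold between 2 libraries (0.58 on the log2 scale). *H2afz* was at 279 RPKM in WT ESCs, 343 in ESCs labelled KD and 304 in AP3 ESCs, and its EB levels were 258, 236 and 394 RPKM. It was therefore not lower at D0 under the KD label, and that line is called the library labelled KD throughout. In WT and AP3, reads from the H2A.Z coding sequence of the transgene can add to this level, and each line received a hairpin. These values thus cannot show how far the endogenous gene was lowered. By qRT-PCR, the paper reports less endogenous H2A.Z transcript with the hairpin than without it. All 4 markers of primed epiblast were higher at D3 than at D0 in each line, and 4 or 5 of the 5 ESC markers found were lower. The 3 mesendoderm markers were also higher at D3 in each line, with a sum of at most 3.16 RPKM in a library. The summed level of 5 endoderm markers at D0 was 8.08 RPKM in WT, 12.3 in the library labelled KD and 27.7 in AP3, and at D3 it was 35.9, 58.0 and 37.1 RPKM. All 5 were higher in AP3 ESCs than in WT ESCs. The summed level of 7 fibroblast markers was 26.1, 22.9 and 44.9 RPKM at D0 and 12.7, 7.23 and 9.35 RPKM at D3, with 5 of 7 higher in AP3 than in WT at each day, *Postn* listed at 0 in AP3 ESCs and in the D3 libraries, and *Lum* listed at 0 in both WT libraries and in the EBs labelled KD. The part of these other cells in the differences below was not tested. In bulk RNA, fewer cells of a type and less RNA per cell cannot be told apart.

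The catalytic subunits come as paralogues, and the level of each can be given only if reads tell them apart. The stretches of coding sequence printed here are those in which each pair shares its longest run of identical bases, read from the mm9 (NCBIM37) transcripts of GENCODE. They are written 5′ to 3′ on the coding strand, and capitals mark the bases at which the paralogues differ within 30 bases. The *Ezh2* stretch is in exon 20 on chromosome 6 (47480555 to 47480584, − strand), and that of *Ezh1* in exon 21 on chromosome 11 (101054268 to 101054297, − strand).
Ezh2: gccctGaagtatgtgggcatcgaACgAgaa
Ezh1: gccctCaagtatgtgggcatcgaGAgGgaa
The *Rnf2* stretch is in exon 6 on chromosome 1 (153318791 to 153318820, − strand), and that of *Ring1* in exon 6 on chromosome 17 (34158651 to 34158680, − strand).
Rnf2: CcagTgaGaagcagtacaccatTtacatAg
Ring1: TcagCgaAaagcagtacaccatCtacatCg

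*Ezh2* and *Ezh1* shared no run longer than 17 bases over coding sequences of 2241 and 2253 bases, and 70.3% of their aligned bases were identical. *Rnf2* and *Ring1* shared at most 14 bases, with 68.1% identity. *Bmi1* and its paralogue *Pcgf2* shared at most 13 bases, with 69.0% identity. The proteins were 68.8%, 67.8% and 68.8% identical over their aligned residues in these 3 pairs. Over the 30 bases printed, *Ezh2* and *Ezh1* differ at 4 positions and *Rnf2* and *Ring1* at 5.

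Most PRC2 subunits were among the higher members in RNA level, and the second paralogue of each enzyme was among the lower ones. By mean RPKM over the 6 libraries, *Mtf2* (92.7) was highest, followed by *Ezh2* (80.9), *Suz12* (68.1), *Jarid2* (50.5), *Eed* (47.1), *Cbx7* (43.7) and *Rnf2* (36.0). *Ezh1* (11.3), *Ring1* (4.93) and *Bmi1* (3.54) were below these. From *Mtf2* down to *Rnf2* the ranges of neighbours in this order overlapped over the 6 libraries. The range of *Rnf2* (33.5 to 40.6 RPKM) lay wholly above that of *Ezh1* (8.82 to 13.5 RPKM), which lay wholly above that of *Ring1* (3.84 to 7.23 RPKM). The ranges of *Ring1* and *Bmi1* (2.82 to 4.43 RPKM) overlapped. The estimated reads behind a value ran from 146 for *Bmi1* in ESCs labelled KD to 11652 for *Mtf2* in AP3 ESCs, so that values of *Bmi1* and *Ring1* are the least precise.

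**Figure D1:**
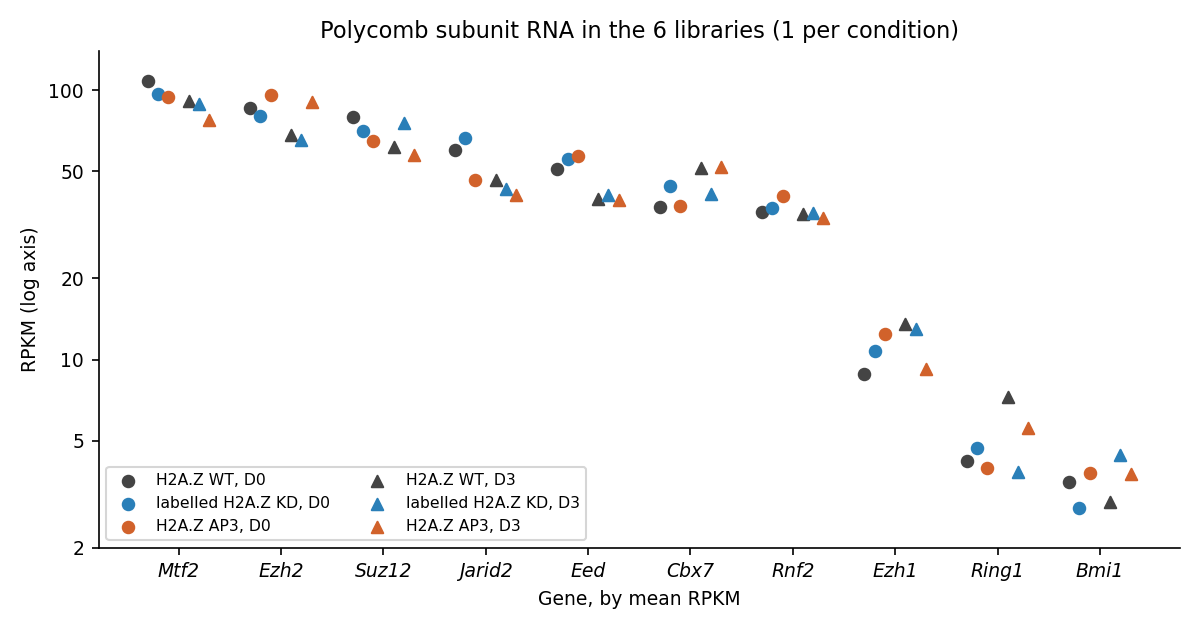
RPKM on a log axis for each of the 10 genes, ordered by mean; circles are the 3 D0 libraries and triangles the 3 D3 libraries, coloured by line, with 1 library per point. *Mtf2* to *Rnf2* lie between 33.5 and 108 RPKM, whereas *Ring1* and *Bmi1* stay between 2.82 and 7.23 RPKM.

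The spread of the members over the 6 libraries was set beside that of other genes. The ratio of the highest to the lowest library had a median of 1.45 over the members, against 1.52 over the 11842 genes that averaged 1 RPKM or more. It exceeded 1.5 in 4 of the 10 members (*Ring1*, *Jarid2*, *Bmi1* and *Ezh1*) and in 52.3% of those genes. Among genes of at least 5 RPKM, the median ratio was 1.43 over the 8 members and 1.44 over all 8256 genes, and it exceeded 1.5 in 2 of the 8 members (25%) and in 41.2% of the genes. The narrowest member was *Rnf2*, with a ratio of 1.21, and the widest was *Ring1*, with a ratio of 1.88.

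Differentiation from ESCs to EBs was compared within each line. Most members were lower at D3, but few passed 1.5-fold. In WT, 2 of 10 members were more than 1.5-fold higher at D3 and 0 lower, against 11.4% and 9.53% of the genes with at least 1 RPKM. In the library labelled KD, 1 was higher and 1 lower, against 11.5% and 8.86%. In AP3, 0 passed in either direction, against 10.8% higher and 11.5% lower. With 10 members, 1 gene is 10% of the list, so these counts cannot be set apart from the background. The median log2 change of the members was −0.24 in WT, −0.11 in the library labelled KD and −0.18 in AP3, while over the genes of at least 1 RPKM it was 0.04, 0.04 and 0.05. Whatever the size of the difference, 5 members (*Ezh2*, *Eed*, *Jarid2*, *Mtf2* and *Rnf2*) were lower at D3 than at D0 in each of the 3 lines, against 20.4% of those genes, and 0 were higher in each, against 27.8%. In 4 of them the D3 levels lay wholly below the D0 levels, against 13.7% of genes, and no member had D3 levels wholly above, against 19% of genes.

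Of the PRC2 core, *Eed*, on chromosome 7 (97103164 to 97129486, − strand, 12 exons), differed most steadily between the days. It stood at 50.7, 55.6 and 56.8 RPKM in ESCs of WT, the library labelled KD and AP3, and at 39.5, 40.9 and 39.2 RPKM in their EBs. The 2 days did not overlap, and the log2 changes of −0.36, −0.44 and −0.53 all stayed under the threshold. A 95% interval that covers only the counting of the estimated reads ran from −0.46 to −0.27 in WT, from −0.53 to −0.35 in the library labelled KD and from −0.62 to −0.45 in AP3.

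*Ezh2*, the main catalytic subunit of dividing cells (chromosome 6, 47480275 to 47545029, − strand, 20 exons), stood at 85.9, 80.0 and 95.9 RPKM in ESCs and 68.2, 65.6 and 90.1 RPKM in EBs of WT, the library labelled KD and AP3. Its D3 level was lower in WT (log2 −0.33) and in the library labelled KD (log2 −0.29), and nearly level in AP3 (log2 −0.09; counting interval −0.14 to −0.04). The AP3 library was the highest of its day at both times.

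*Ezh1*, the paralogue known from cells that no longer divide (chromosome 11, 101052430 to 101087764, − strand, 21 exons), stood at 8.82, 10.8 and 12.4 RPKM in ESCs and 13.5, 13.0 and 9.19 RPKM in EBs. WT was the lowest library at D0 and the highest at D3, and AP3 the reverse. The log2 change from D0 to D3 was 0.61 in WT (counting interval 0.48 to 0.75), which passed the threshold, 0.27 in the library labelled KD and −0.44 in AP3 (counting interval −0.56 to −0.31). The call in WT is close to the limit: it is lost when each pair of libraries is centred on its median ratio or with a pseudocount of 1.

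*Suz12*, the scaffold of PRC2 (chromosome 11, 79806608 to 79847624, + strand, 16 exons), stood at 79.3, 70.6 and 64.5 RPKM in ESCs and 61.5, 75.6 and 57.3 RPKM in EBs. The days overlapped, because the D3 library labelled KD lay above 2 of the 3 ESC libraries. The log2 changes were −0.37, 0.10 and −0.17.

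*Jarid2*, an accessory subunit without catalytic activity (chromosome 13, 44826272 to 45016346, + strand, 18 exons), stood at 60.0, 66.5 and 46.5 RPKM in ESCs and 46.4, 43.0 and 40.8 RPKM in EBs. Its lowest ESC library and its highest EB library were close, at 46.5 and 46.4 RPKM, so that the days separate by little. In the library labelled KD it passed the threshold, with a log2 change of −0.63 (counting interval −0.69 to −0.57) and 1.55-fold less RNA at D3. The changes were −0.37 in WT and −0.19 in AP3.

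*Mtf2*, a Polycomb-like subunit that binds unmethylated CpG-rich DNA (chromosome 5, 108494761 to 108538021, + strand, 15 exons), stood at 108, 97.1 and 94.5 RPKM in ESCs and 90.9, 88.7 and 77.4 RPKM in EBs. The days did not overlap, and the log2 changes were −0.24, −0.13 and −0.29. Over 395 exonic bases *Mtf2* overlaps *Tmed5* on the opposite strand, which was at 7.23 to 9.63 RPKM, and reads there cannot be assigned without strand. *Ezh2* and *Suz12* likewise share 174 and 178 exonic bases with annotated genes on the opposite strand, which have no entry of their own in the table.

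The 2 catalytic subunits of PRC1 differed in how steady they were. *Rnf2* (chromosome 1, 153316536 to 153347953, − strand, 7 exons) stood at 35.4, 36.6 and 40.6 RPKM in ESCs and 34.8, 35.0 and 33.5 RPKM in EBs. Its lowest D0 and highest D3 values were 35.4 and 35.0 RPKM, and its log2 changes were −0.03, −0.06 and −0.28. *Ring1* (chromosome 17, 34157739 to 34161625, − strand, 7 exons) stood at 4.22, 4.70 and 3.97 RPKM in ESCs and 7.23, 3.84 and 5.59 RPKM in EBs. The D3 library labelled KD was the lowest of all 6, while both other D3 libraries lay above every D0 library. The log2 change was 0.78 in WT (counting interval 0.50 to 1.06), past the threshold with 1.71-fold more RNA, against −0.29 in the library labelled KD (−0.59 to 0.01) and 0.49 in AP3 (0.23 to 0.76).

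*Bmi1*, the PCGF protein of one form of canonical PRC1 (chromosome 2, 18598645 to 18608256, + strand, 10 exons), stood at 3.50, 2.82 and 3.80 RPKM in ESCs and 2.97, 4.43 and 3.75 RPKM in EBs. The library labelled KD was the lowest at D0 and the highest at D3. Its log2 change of 0.65 (counting interval 0.36 to 0.95) passed the threshold, and the changes in WT (−0.24, −0.55 to 0.07) and AP3 (−0.02, −0.28 to 0.23) did not. With a pseudocount of 1 it no longer passed.

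*Cbx7*, the CBX protein that prevails in ESCs (chromosome 15, 79746237 to 79763076, − strand, 6 exons), stood at 36.8, 44.0 and 37.1 RPKM in ESCs and 51.2, 41.1 and 51.8 RPKM in EBs. It was 1.39-fold higher at D3 in WT and 1.40-fold higher in AP3, both under the threshold, with log2 changes of 0.47 and 0.48. In the library labelled KD the log2 change was −0.10 (counting interval −0.17 to −0.03).

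**Figure D2:**
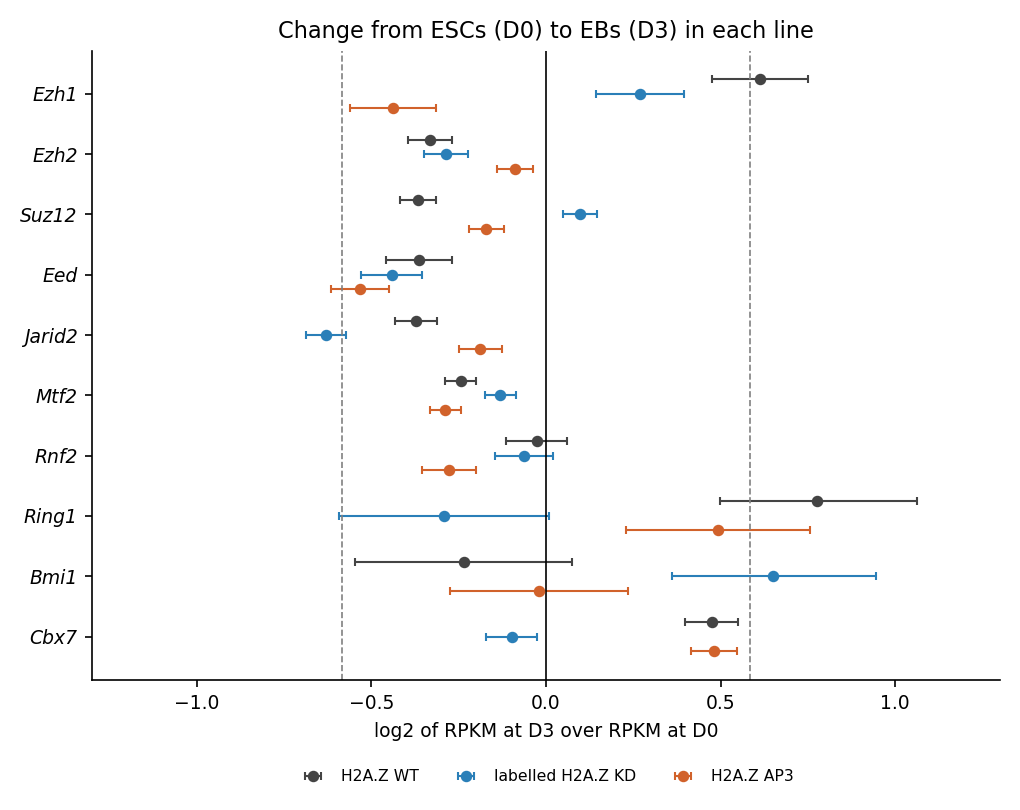
Log2 of RPKM at D3 over RPKM at D0 for each gene in the 3 lines; bars are 95% counting intervals from estimated reads in 1 library per condition, and dashed lines mark 1.5-fold. *Eed*, *Mtf2* and *Ezh2* lie left of 0 in each line, *Cbx7* at 0.47 and 0.48 in WT and AP3, and *Ezh1* runs from 0.61 in WT to −0.44 in AP3.

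The acidic patch mutant was then compared with wild-type H2A.Z on each day. No member passed 1.5-fold at D0, against 6.8% of genes higher and 5.49% lower, and none at D3, against 4.05% higher and 5.21% lower. The median log2 change of the members was 0.06 at D0 and −0.08 at D3, beside 0.00 over the genes of at least 1 RPKM at both days. *Ezh1* came closest to the threshold, at 12.4 against 8.82 RPKM at D0 (log2 0.50; counting interval 0.37 to 0.63) and at 9.19 against 13.5 RPKM at D3 (log2 −0.55; −0.69 to −0.42). At D3 *Ezh2* was 1.32-fold higher in AP3 (log2 0.40; 0.34 to 0.46). *Jarid2* was lower in AP3 at both days, with log2 changes of −0.37 and −0.18, as were *Suz12* (−0.30 and −0.10) and *Mtf2* (−0.19 and −0.23). In AP3 ESCs all 5 endoderm markers and 5 of the 7 fibroblast markers were also higher than in WT ESCs, and all 4 primed epiblast markers were lower. Of the 5 ESC markers 4 were lower, while their sum was 909 RPKM in AP3 against 856 RPKM in WT, with *Pou5f1* at 540 against 421 RPKM. At D3, 5 fibroblast markers were higher in AP3 and 1 lower. The part of these markers in the values of either day was not tested.

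Of the PRC1 members, *Cbx7* differed little between AP3 and WT, at log2 changes of 0.01 at D0 and 0.02 at D3. *Rnf2* was at 0.20 at D0 (counting interval 0.12 to 0.28) and −0.05 at D3 (−0.14 to 0.03). *Ring1* was at −0.09 at D0 (counting interval −0.38 to 0.21) and −0.37 at D3 (−0.62 to −0.12). *Bmi1* was at 0.12 (−0.15 to 0.39) and 0.34 (0.04 to 0.64). For *Bmi1* and *Ring1* at D0, the counting error alone is thus as wide as the difference.

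The library labelled KD was compared with WT in the same way, and the comparison shares the WT libraries with that of the mutant. At D0 no member passed the threshold, against 2.94% of genes higher and 4.02% lower. At D3, 0 were higher and 1 lower, against 3.23% and 4.53%. The 1 member was *Ring1*, at 3.84 RPKM against 7.23 RPKM (log2 −0.91; counting interval −1.18 to −0.65), which is 1.88-fold less RNA. *Bmi1* stood next to the threshold in the other direction, at 4.43 against 2.97 RPKM (1.49-fold; log2 0.57; 0.30 to 0.85), and it passes when the libraries are centred. *Suz12* was 1.23-fold higher at D3 (log2 0.30; 0.25 to 0.35) after being lower at D0 (log2 −0.17), and *Cbx7* was lower at D3 (log2 −0.32; −0.38 to −0.25) after being higher at D0 (log2 0.26). *Ezh1* was at log2 changes of 0.29 at D0 and −0.05 at D3. The changes of *Ezh2*, *Eed*, *Jarid2*, *Mtf2* and *Rnf2* lay between −0.15 and 0.15 at both days. All 5 endoderm markers and all 4 primed epiblast markers were higher in the library labelled KD than in WT at both days, and 5 of the 7 fibroblast markers were lower. Of the 3 mesendoderm markers, 3 were higher at D0, and at D3 2 were higher and 1 lower. All 5 ESC markers were lower at D3. The part of these markers in the differences was not tested.

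**Figure D3:**
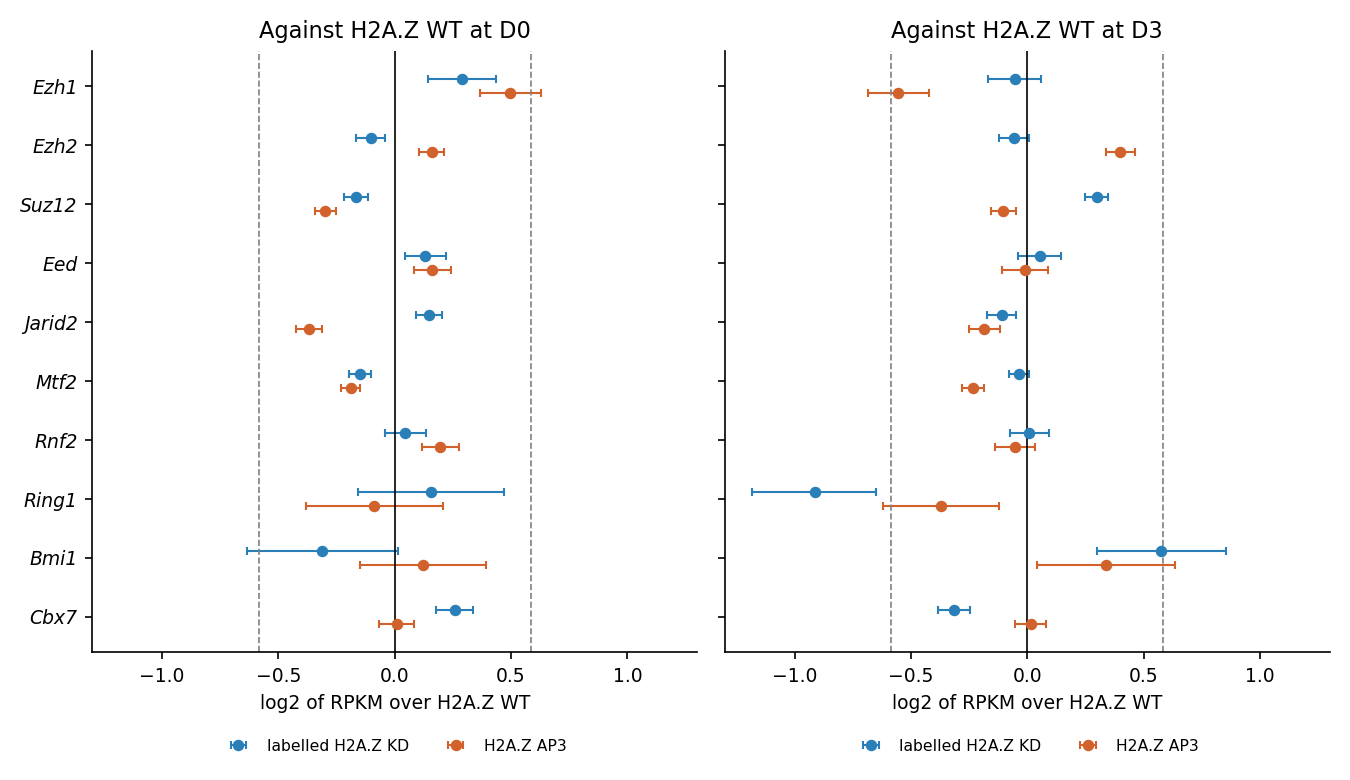
Log2 of RPKM over WT at D0 (left) and D3 (right) for the library labelled KD and for AP3; bars are 95% counting intervals from estimated reads and dashed lines mark 1.5-fold. *Ring1* in the D3 library labelled KD, at −0.91, is the point beyond a dashed line, and *Ezh1* in AP3 lies at 0.50 at D0 and −0.55 at D3.

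Set directly against the library labelled KD, AP3 had no member past the threshold at D0, against 10.5% of genes higher and 6.13% lower, and none at D3, against 5.49% higher and 5.07% lower. At D0 the widest difference was in *Jarid2*, at 46.5 against 66.5 RPKM (log2 −0.52). At D3, *Ring1* (log2 0.54), *Ezh2* (0.46) and *Cbx7* (0.33) were higher in AP3, while *Ezh1* (−0.50) and *Suz12* (−0.40) were lower. All 5 endoderm markers were higher in AP3 than in the library labelled KD at D0 and lower at D3, all 4 primed epiblast markers were lower at D0, and 5 of the 7 fibroblast markers were higher at each day. Their part in these differences was not tested.

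Because RPKM is scaled by length, the levels of paralogues can be set side by side within a library. *Ezh2* made up 83.5% to 90.7% of the summed *Ezh1* and *Ezh2* RPKM. The *Ezh1* share was 9.32% in WT ESCs, 11.9% in ESCs labelled KD and 11.5% in AP3 ESCs, and it was 16.5% in WT EBs, 16.5% in EBs labelled KD and 9.26% in AP3 EBs. *Ezh2* thus exceeded *Ezh1* by 9.80-fold in AP3 EBs and by 5.06-fold in WT EBs. *Rnf2* made up 82.8% to 91.1% of the summed *Rnf2* and *Ring1* RPKM, lowest in WT EBs. *Mtf2* held 90.7% to 93.5% of the Polycomb-like group, whose other genes *Phf1* and *Phf19* stayed below 6 RPKM.

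*Bmi1* was the lowest of the 6 PCGF genes in every library, with 2.92% to 4.38% of their summed RPKM. *Pcgf2*, which replaces BMI1 in canonical PRC1, held 23.3% to 29.6% and was 5.33 to 10.1 times as high as *Bmi1*. *Pcgf6*, of a variant PRC1, held 24.6% to 28.8%. *Cbx7* held 85.0% to 87.8% of the summed *Cbx2*, *Cbx7* and *Cbx8* RPKM in each library, and *Cbx2* held 11.1% to 14.3%. *Cbx8*, a CBX protein known from differentiated cells, was at no more than 0.693 RPKM.

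**Figure D4:**
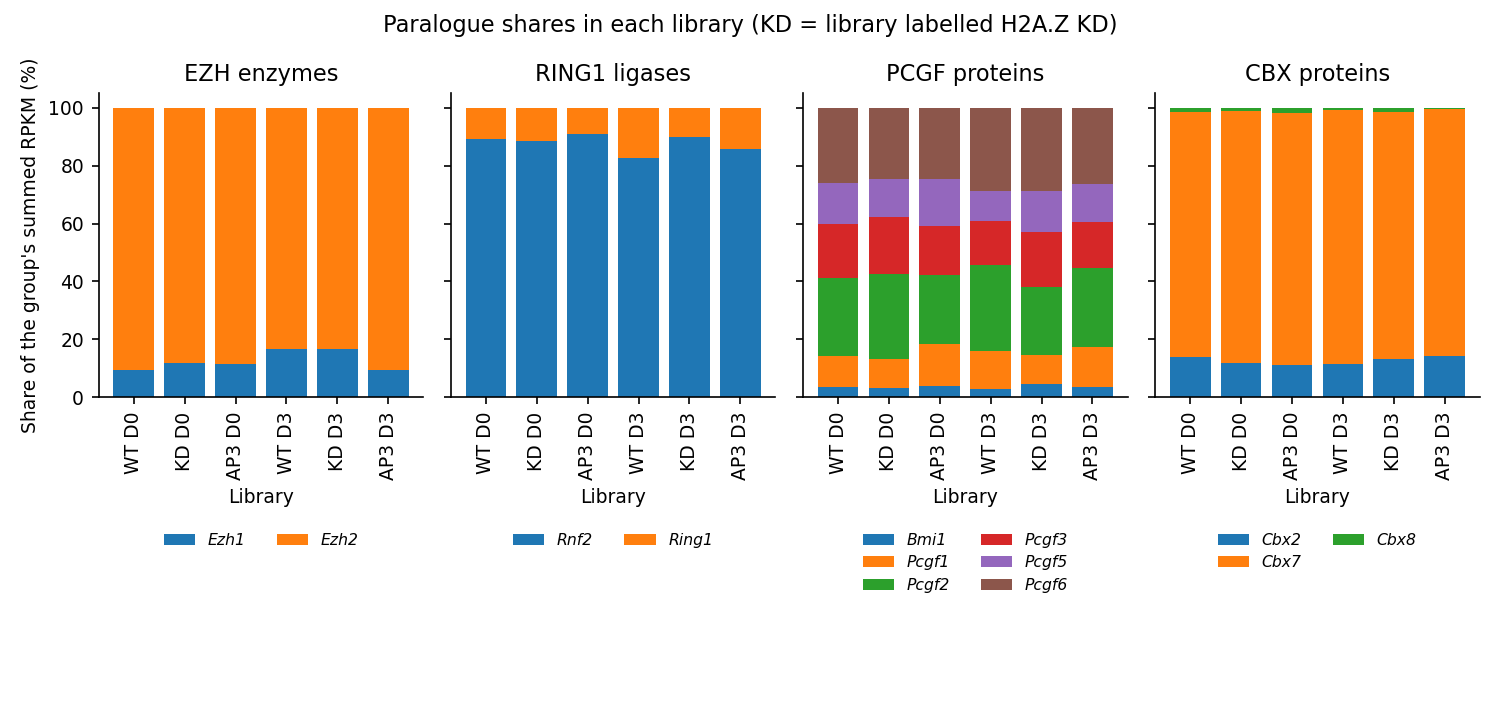
Share of the summed RPKM of each paralogue group, in percent, in the 6 libraries; each stacked bar is 1 library and adds up the genes in its key, which for the CBX proteins are *Cbx2*, *Cbx7* and *Cbx8*. *Ezh2*, *Rnf2* and *Cbx7* hold at least 82.8% of these sums in each library, and *Bmi1* at most 4.38% of the PCGF group.

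Other genes of the pathway were described from a list of 34, of which 33 were found in the table and 30 had at least 1 RPKM. *Cbx6* was not analysed here. Against WT, none of the 30 passed 1.5-fold in AP3 at either day or in the library labelled KD at D0, and at D3 *Phf1* was lower in the latter (3.51 against 5.64 RPKM, log2 −0.69). Of all genes tested, 2.94% to 6.8% passed in a given direction in these comparisons. From D0 to D3, 1 of 30 passed upward and 2 downward in WT, against 11.4% and 9.53% of all genes tested. The counts were 2 and 2 in the library labelled KD, against 11.5% and 8.86%, and 3 and 2 in AP3, against 10.8% and 11.5%. None of these counts was above its background share. *Bcor*, a corepressor of a variant PRC1, passed in each line, at 5.46, 5.02 and 4.10 RPKM at D0 and 8.60, 7.75 and 8.70 RPKM at D3. *Cbx2* passed in AP3 (4.73 to 8.65 RPKM, log2 0.87), as did *Auts2* (2.26 to 4.27 RPKM), while *Phc3* and *Bcorl1* were lower there at D3. *Rybp*, a subunit of variant PRC1 that stimulates the ligase, was at 80.5 RPKM in WT ESCs and 52.2 RPKM in WT EBs (log2 −0.62), and *Bcorl1* also passed downward.

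*Phc1*, a polyhomeotic subunit of canonical PRC1, stood at 172, 181 and 188 RPKM in ESCs and 136, 96.9 and 181 RPKM in EBs. It passed downward in the library labelled KD (log2 −0.90), and at D3 AP3 stood 1.87-fold above that library. *Yaf2* was higher (log2 0.74) and *Kdm6b*, an H3K27 demethylase, lower (log2 −0.69) at D3 in the library labelled KD. Between AP3 and that library, 1 of 30 passed upward and 1 downward at each day, against 10.5% and 6.13% of all genes tested at D0 and 5.49% and 5.07% at D3. These were *Pcgf1* (log2 0.66) and *Auts2* (−0.64) at D0, and *Phc1* and *Phc3* (−0.82) at D3. *Rbbp4* and *Rbbp7*, histone-binding proteins shared with other complexes, stayed within 102 to 115 and 134 to 171 RPKM.

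For the 2 members with the widest range, the genes of at least 5 RPKM with the most similar profile were sought. Likeness was measured by the largest log2 deviation over the 6 libraries after each gene was centred on its own mean. For *Ring1* these were *Snrnp35* (0.15), *Apip* (0.18) and *Pabpn1* (0.19) among 8256 genes. For *Jarid2* they were *Rbbp6* (0.08), *Fam53c* (0.10) and *Kdm6b* (0.13) among 8255 genes.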

How the data were processed

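Poly(A)-selected RNA was made into Illumina TruSeq libraries. With Tophat and Bowtie 0.12.7 the authors placed single-end reads on mm9, where a read could match several locations, and they deposited RPKM per gene from Cufflinks 1.3.0. The deposited log2 ratios between libraries were not used. Each column was matched to its sample by name. Log2 changes were computed as log2 of (RPKM + 0.001) in 1 library over (RPKM + 0.001) in the other, for 9 pairs of libraries, and called past 1.5-fold. The added 0.001 draws in ratios of values near 0 and hardly alters those of the members. Shares over all genes use the 11842 genes that averaged 1 RPKM or more. Depth was estimated from the step that 1 read is worth on genes with 1 transcript over 1500 bases; its estimator was altered once, because the depth of AP3 ESCs at first came out implausibly low. Reads per member are depth times RPKM times the length of the transcript with the longest complete coding sequence, and the 95% intervals are exact binomial, cover counting error only and take reads as independent molecules. Starts were raised by 1. GENCODE annotation is of the same assembly (NCBIM37).

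Named were the 10 members, the listed Polycomb genes past 1.5-fold or in a paralogue group, *H2afz*, and the 3 genes most like each of the 2 widest members. *Rbbp4*, *Rbbp7*, *Tmed5* and the markers *Pou5f1*, *Thy1*, *Col1a2*, *Postn* and *Lum* were added after their values were seen. Members and lists were chosen with earlier results of these data known. For 1 gene of the lists, values are not reported here, and it was left out of the sums. Alternatives were the pseudocount, threshold, filter, centring and summing per symbol. Scripts were tested on simulated data. The tools were biopython 1.88, scipy 1.17.1, pandas 2.3.3, numpy 2.4.6, matplotlib 3.10.9 and Python 3.11.15.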

Additional observations from a re-analysis of the deposited data

Results flagged for a closer look

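With 1 library per condition, no group is large enough to look for a sample apart from its replicates. Members were singled out where the same contrast ran in opposite directions in 2 lines or on 2 days and both counting intervals left out 0. None of these differences between contrasts was tested, and contrasts on the same day share libraries. From D0 to D3, *Ezh1* had log2 changes of 0.61 in WT and 0.27 in the library labelled KD, against −0.44 in AP3. *Suz12* had −0.37 in WT and −0.17 in AP3, against 0.10 in the library labelled KD, and *Cbx7* had 0.47 and 0.48, against −0.10. *Ezh1* in AP3 against WT went from 0.50 at D0 to −0.55 at D3. In the library labelled KD against WT, *Suz12* went from −0.17 to 0.30, *Jarid2* from 0.15 to −0.11 and *Cbx7* from 0.26 to −0.32. In AP3 against the library labelled KD, *Ezh1* went from 0.21 to −0.50 and *Cbx7* from −0.25 to 0.33.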

How the results depend on the processing

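The labels give no replicate numbers. A test of the day with the 3 lines as pairs was not run, since the lines differ in their H2A.Z by design and are not replicates of a condition. Leaving out each line in turn, an alternative chosen after seeing the data, gave 5 to 7 members lower at D3 in both other lines, against 5 over the 3 lines, and 0 to 2 members higher, against 0. The share of all genes went up as well, from 20.4% over the 3 lines to between 25.5% and 30.2% lower, and from 27.8% to between 34.8% and 39.0% higher. Without the library labelled KD, *Ring1* and *Cbx7* were higher in both other lines, and without AP3 *Ezh1* was. The number of members past the threshold was 1 for the library labelled KD against WT at D3, 2 from D0 to D3 in WT and 2 from D0 to D3 in the library labelled KD. In this order it was 0, 0 and 0 with a threshold of 2-fold, and 0, 1 and 1 with a filter of at least 5 RPKM, which removes *Ring1* and *Bmi1*. The share of all genes past the threshold was 7.77%, 21.0% and 20.4% in these comparisons, 2.05%, 8.54% and 8.35% at 2-fold, and 3.60%, 14.2% and 13.5% with that filter. With a pseudocount of 1 the number of members was 1 for each of the changes from D0 to D3 in those lines, beside 15.1% and 14.3% of all genes. Once the median log2 ratio of each pair was set to 0, that number was 2 at D3 against WT and 1 from D0 to D3 in WT, beside 7.68% and 20.8% of all genes, with shifts of the median between −0.03 and 0.05. In the other 6 comparisons the count stayed at 0 under each of the 7 alternatives. The share of all genes there lay between 6.96% and 22.3% with the settings used above. It was between 3.16% and 16.0% with a pseudocount of 1, and between 2.81% and 15.3% with a filter of at least 5 RPKM. At 2-fold it lay between 1.70% and 8.49%, and without a filter between 19.7% and 31.0%. With a pseudocount of 0.1, centring or summing, it stayed between 6.33% and 22.5%. A pseudocount of 0.1, no filter on low values, and entries summed per symbol left each count as it was, though without the filter the share of all genes behind the counts of 1, 2 and 2 was 20.7%, 30.7% and 30.2%. Summing left the paralogue shares as they were. No log2 change of a member past the threshold turned its sign. Depth limits *Bmi1* and *Ring1*, with 146 to 317 estimated reads a library.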
